A study of Mus musculus with 6 samples.

Results

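Wnt signalling in the thymus was read from 41 genes, out of 20866 genes named on the array. They were taken by symbol: every gene called Wnt, Fzd, Dkk or Sfrp with a digit after it, together with Lrp5, Lrp6, Axin2, Lef1 and Tcf7. Wnt10a was left out by the rule. By role they were 18 Wnt ligands, 10 Frizzled receptors, 2 co-receptors, 8 secreted inhibitors, the target and inhibitor Axin2, and 2 HMG-box transcription factors. All 41 had a probe, 31 of them 1 probe and 10 of them 2, and the brightest probe by its mean over the 6 arrays stood for the gene.

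Wnt proteins are secreted, lipid-modified ligands. They bind Frizzled receptors, with Lrp5 or Lrp6 as co-receptor, and in the canonical branch this stabilises beta-catenin, which then acts in the nucleus through the TCF and LEF factors. Sfrp proteins bind Wnt ligands outside the cell, and Dkk1 binds the co-receptors. In the thymus, Wnt ligands from epithelium are known to act on the epithelium itself and on thymocytes, and Tcf7 and Lef1 are required for early T cell development.

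The study compared TNF-knockout mice (TNF-KO) with mice that lack both TNF and RelA (DKO), to ask whether regulatory T cells need RelA to exit the thymus. RelA is the p65 subunit of NF-kB. Its loss is lethal to embryos when TNF is present, so every group lacked TNF, and no wild-type group was used here. The mice were C57BL/6, between 1.5 and 2 weeks old. Each genotype gave 3 sorted pools with 1 single-colour Agilent array each. CD4+CD25hi thymocytes, a gate that enriches regulatory T cells, came from 5 mice. CD45-EpCAM+ cells, the thymic epithelial gate, and CD45+EpCAM- cells, a gate meant to enrich macrophages and dendritic cells, came from 10 thymi.

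A level is log2 of the processed signal minus the array's 75th percentile, so that 0 is the array's own 75th percentile. Levels of different genes come from different probes and are not ranked against each other. "Above background" stands for the scanner software's mark that a spot is well above background. The DKO array of CD45-EpCAM+ cells was the dimmest, with 47.3% of probes above background against 55.1% to 66.2% on the others, and a 75th percentile of 108 intensity units against 272 to 675. Its lowest signal above background lay at a level of -2.82, against -5.54 to -4.51 on the other arrays, so weak genes were lost there first. Rela, the targeted gene, was at 4.52 in TNF-KO and 2.66 in DKO thymocytes, at 3.84 and 1.81 in CD45-EpCAM+ cells, and at 4.04 and 3.30 in CD45+EpCAM- cells, lower in DKO each time. Tnf, labelled as knocked out in every group, was above background on all arrays but that of DKO CD45-EpCAM+ cells, at -1.49 to -0.57. Where its probe lies relative to the deletion is not known here, so this signal does not check the label.

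The gates were checked against 9 marker lists. All 8 thymic epithelial markers were above background on both CD45-EpCAM+ arrays, and their summed linear signal, in units of the array's 75th percentile, was 205 and 204 there against at most 0.609 elsewhere. Foxp3, which defines regulatory T cells, was at 4.47 and 4.79 in CD4+CD25hi thymocytes. RNA of other cells was present in both stromal gates, and the summed T-lineage signal of CD45+EpCAM- cells exceeded that of the thymocyte gate. The 8 T-lineage markers were above background on all 6 arrays, with sums of 429 and 422 in thymocytes, 79.3 and 150 in CD45-EpCAM+ cells, and 477 and 468 in CD45+EpCAM- cells. The 6 immature thymocyte markers summed to 131 and 81.4 in CD45+EpCAM- cells. Their sums were 33.6 and 66.7 in CD45-EpCAM+ cells, and 5.44 and 2.75 in CD4+CD25hi thymocytes. The 6 macrophage markers summed to 11.2 and 18.7 in CD45+EpCAM- cells and to at most 8.73 elsewhere. Of the dendritic cell markers, Itgax was at 0.93 and -0.54 and Clec9a at -2.27 and -4.01 in CD45+EpCAM- cells, and Clec9a was not above background on any other array; Siglech was bright on all 6 arrays, from 5.35 to 7.42. In pooled RNA, fewer cells of a type and less RNA per cell cannot be told apart.

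The upstream promoters of 4 members are shown because the results turn on these genes: Wnt4 is the ligand with the widest gap between populations, Wnt10b and Sfrp5 were the members at least 2-fold lower in DKO than in TNF-KO epithelial cells, and Fzd9 was the Frizzled gene with the widest difference in the other direction. Each is 250 bases, 5′ to 3′ on the gene's strand, ending at the base before the transcription start, from RefSeq on GRCm38.p6. Wnt4 lies at chr4:137277385-137277634 on the plus strand. Wnt10b lies at chr15:98778151-98778400, Sfrp5 at chr19:42202253-42202502 and Fzd9 at chr5:135251048-135251297, each on the minus strand. Capitals mark matches to the kappaB consensus bound by RelA-containing dimers, searched on both strands.
Wnt10b: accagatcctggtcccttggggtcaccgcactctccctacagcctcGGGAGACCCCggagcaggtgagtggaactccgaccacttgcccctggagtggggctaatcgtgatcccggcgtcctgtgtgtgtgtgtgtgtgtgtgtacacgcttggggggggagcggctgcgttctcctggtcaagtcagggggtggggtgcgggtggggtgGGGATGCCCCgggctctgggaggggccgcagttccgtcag
Sfrp5: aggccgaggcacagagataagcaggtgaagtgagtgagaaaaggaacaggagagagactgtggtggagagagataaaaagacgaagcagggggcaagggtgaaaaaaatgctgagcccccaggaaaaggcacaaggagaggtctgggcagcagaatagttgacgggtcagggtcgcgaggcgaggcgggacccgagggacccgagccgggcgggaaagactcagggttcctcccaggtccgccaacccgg
Fzd9: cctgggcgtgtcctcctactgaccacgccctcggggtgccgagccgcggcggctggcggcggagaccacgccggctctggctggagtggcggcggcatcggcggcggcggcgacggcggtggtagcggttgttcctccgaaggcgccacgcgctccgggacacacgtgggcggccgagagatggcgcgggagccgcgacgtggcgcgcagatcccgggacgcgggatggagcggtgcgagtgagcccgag
Wnt4: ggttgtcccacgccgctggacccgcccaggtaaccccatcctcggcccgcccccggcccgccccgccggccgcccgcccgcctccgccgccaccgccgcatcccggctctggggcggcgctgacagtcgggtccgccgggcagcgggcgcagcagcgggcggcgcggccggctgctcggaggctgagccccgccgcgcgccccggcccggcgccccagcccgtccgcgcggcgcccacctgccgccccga

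The table of promoters held 28 of the 41 members. Wnt10b was the 1 member (3.57%) with a kappaB match, against 4.46% of 27025 genes and 3.9% of 32851 promoters. It had 2 matches. The first, GGGAGACCCC, lies on the gene's strand, starting 204 bases before the start. The other reads GGGGCATCCC on the opposite strand and begins 40 bases before the start in the printed orientation. TCF and LEF sites were searched on both strands as CAAAG preceded by 2 letters that are each A or T. These occurred in 5 of the 28 members (17.9%), namely Dkk1, Fzd7, Lef1, Wnt11 and Wnt5b, against 16.8% of all genes and 14.8% of all promoters. The motifs were chosen after the expression values had been seen, and a match describes letters, not binding.

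More members were measured in the epithelial gate than in the others. Of the 41 members, 20 were above background on both CD45-EpCAM+ arrays (48.8%, against 56.8% of all genes), 16 on both CD45+EpCAM- arrays (39.0%, against 65.3%) and 11 on both CD4+CD25hi arrays (26.8%, against 58.3%). Fzd4, Fzd7, Sfrp1, Sfrp5 and Wnt9a were above background on both epithelial arrays and on no other array (12.2% of members, against 3.35% of all genes). By their brightest probe, a further 8 members were seen on the TNF-KO epithelial array alone (19.5%, against 7.44%); for 1 of them, Wnt16, the second probe was above background on 3 other arrays. Wnt2, Wnt2b, Wnt7a and Wnt8a were above background on no array, and 8 members on all 6.

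**Figure D1:**
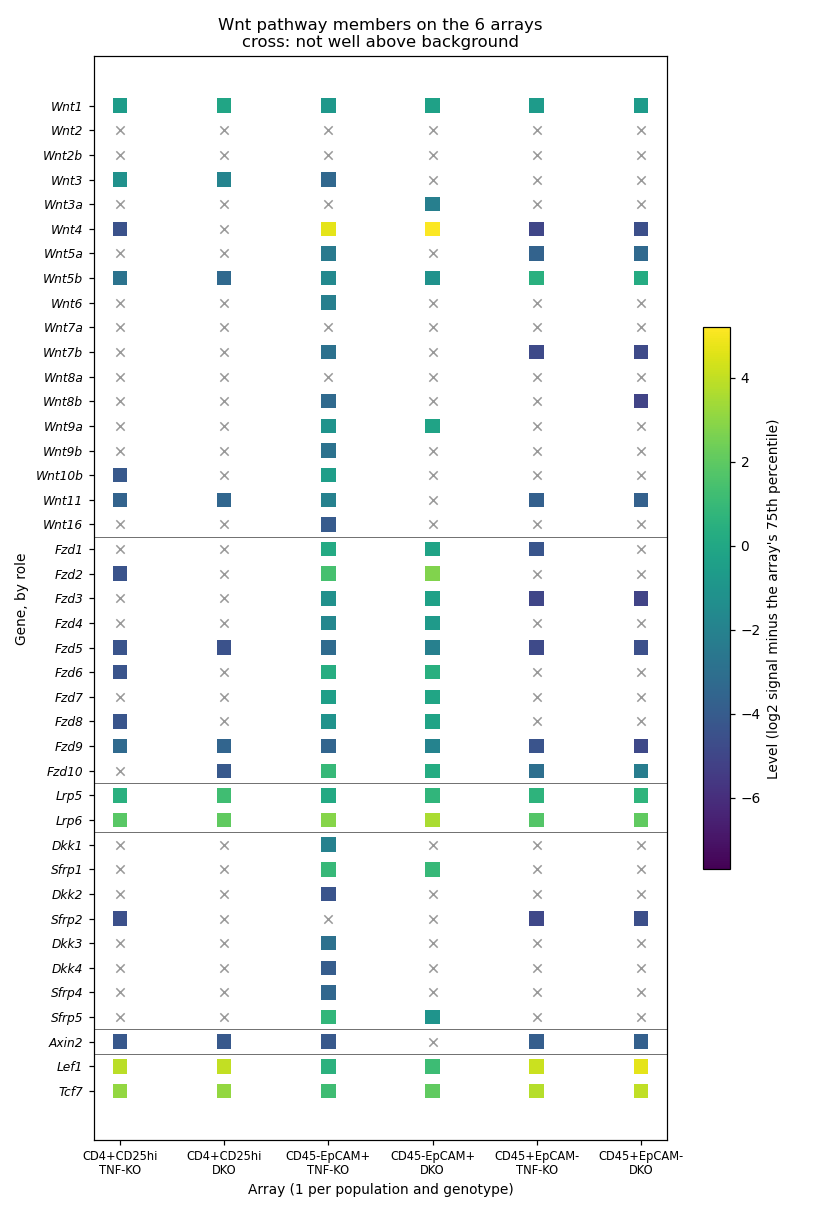
Level of each of the 41 genes (rows, grouped by role) on each of the 6 arrays (columns), as log2 signal minus the array's 75th percentile on the colour scale; a cross marks an array where the gene was not well above background. The 10 Frizzled rows are filled in both CD45-EpCAM+ columns, whereas Lef1 and Tcf7 are brightest in the other 4 columns.

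Differences between populations were estimated in limma, allowing for genotype, over the 13743 genes above background on at least 3 arrays. This took in 21 members; the other 20 were too dim elsewhere and have only bounds. Between CD45-EpCAM+ and CD45+EpCAM- cells, 15 of the 21 passed an adjusted p of 0.05 and 2-fold, 12 higher in CD45-EpCAM+ cells and 3 lower, where 19.4% and 19.2% of all genes were, or 38.6% in either direction. For thymocytes against CD45-EpCAM+ cells, 14 passed, 11 higher in CD45-EpCAM+ cells and 3 lower, where 20.7% and 18.3% of all genes were, or 38.9% in either direction. For thymocytes against CD45+EpCAM- cells, 3 passed, 2 higher in thymocytes and 1 lower, where 4.8% and 7.81% of all genes were, or 12.6% in either direction. Each population had 2 arrays, so members above background in 1 population alone could not enter the fit. Members high there and seen on 1 further array could. These counts therefore describe the 21 and do not stand for the family.

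The arrays per population are the TNF-KO and the DKO array, so with 2 residual degrees of freedom the p-values rest on the variation of the genotype difference over the populations, and not on the spread between pools. Each population had its own slide, so population and slide cannot be told apart. Without any single one of the 4 arrays of CD4+CD25hi and CD45+EpCAM- cells, the 3 calls between those populations fell to 0, and without either epithelial array they were 6. Without the DKO thymocyte array, the 14 calls fell to 9. Without either CD45+EpCAM- array, the 15 fell to 8. The calls lost this way against CD45+EpCAM- cells were those of Fzd5, Fzd10, Lrp6, Tcf7, Wnt5b, Wnt7b and Wnt11, each with its direction kept. Quantile normalization gave 13 calls between thymocytes and epithelial cells, 5 of them higher in thymocytes, and 14 between the stromal gates, 5 of them lower in epithelial cells.

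Among the ligands, Wnt4 separated the epithelial gate from the rest. Wnt4 is a ligand that thymic epithelial cells make and that is known to support Foxn1 expression. Its level was 4.66 in TNF-KO and 5.13 in DKO epithelial cells. In CD45+EpCAM- cells it was -5.01 and -4.62, and in thymocytes -4.47 and -4.48, the latter not above background. The epithelial level exceeded that of CD45+EpCAM- cells by 9.71 (SE 0.18, limma adjusted p = 0.00161), an 837-fold difference, and thymocytes differed from epithelial cells by -9.37. The epithelial arrays did not overlap any other. The second Wnt4 probe was at 1.38 and 1.76 in epithelial cells and above background on no other array. The size of the fold thus rests on the brightest probe. Its CD45+EpCAM- values lay near the lowest signals above background there, -5.41 and -5.54.

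Wnt5b was highest in CD45+EpCAM- cells. This ligand mostly signals without beta-catenin. It was at 0.50 and 0.18 in CD45+EpCAM- cells, at -1.61 and -1.12 in epithelial cells and at -2.78 and -3.34 in thymocytes, with no overlap between the populations. Thymocytes differed from CD45+EpCAM- cells by -3.40 (10.6-fold, SE 0.31, limma adjusted p = 0.0163). The steps of -1.71 (SE 0.31) from CD45+EpCAM- to epithelial cells and -1.70 from there to thymocytes also passed with limma. The step to thymocytes did not pass after normexp background correction (-0.99) or quantile normalization (-1.19).

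Wnt3, a canonical ligand, was highest in the thymocyte gate. It was at -1.24 and -1.87 in CD4+CD25hi thymocytes and at -3.37 in TNF-KO epithelial cells, and not above background on the other 3 arrays. Thymocytes stood at least 15.1-fold above CD45+EpCAM- cells (fitted difference 5.43, SE 0.14, limma adjusted p = 0.00914). The fitted excess over epithelial cells, 2.22 (SE 0.14, limma adjusted p = 0.0023), used a DKO epithelial value that was not above background, and this call was lost with normexp, where the difference was 0.51.

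Wnt9a, another ligand seen in the epithelial gate alone, was at -1.08 and -0.23 there, at least 16.2-fold higher than in thymocytes and 28.2-fold higher than in CD45+EpCAM- cells. Wnt7b and Wnt11 were weak. Wnt7b stood at -2.87 in TNF-KO epithelial cells, at -4.82 and -4.79 in CD45+EpCAM- cells and below background elsewhere. Its 4.61-fold excess in epithelial over CD45+EpCAM- cells passed with limma (adjusted p = 0.0144) but not after quantile normalization (1.31 on the log2 scale). For Wnt11 the excess was 2.40-fold (limma adjusted p = 0.0331), and it was lost with quantile normalization (0.42) and when any single array other than the DKO epithelial one was left out.

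For Wnt5a and Wnt1 no contrast between populations passed with limma. Wnt5a, a ligand of the non-canonical branch, was at -2.44 in TNF-KO epithelial cells and at -3.66 and -3.34 in CD45+EpCAM- cells, and the groups overlapped once the dim DKO epithelial value of -4.03 was counted. Wnt1 was flat, between -0.84 and -0.14 on all 6 arrays. Its other probe was above background on no array, so this level rests on a single probe. Wnt6, Wnt8b, Wnt9b, Wnt10b, Wnt16 and Wnt3a were seen on 1 or 2 arrays. Wnt10b was at -0.50 in TNF-KO epithelial cells and -4.13 in TNF-KO thymocytes, and Wnt6 at -2.16 in TNF-KO epithelial cells. Wnt9b and Wnt16 were above background there at -2.86 and -4.03. Wnt8b was at -3.31 there and at -5.11 in DKO CD45+EpCAM- cells.

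All 10 Frizzled receptors were above background on both epithelial arrays, against 4 on both CD45+EpCAM- arrays and 2 on both thymocyte arrays. Frizzled proteins are the membrane receptors that bind Wnt directly. Of the 8 in the limma fit, 7 were higher in epithelial cells than in each of the other gates, all but Fzd9, where 19.4% of all genes were higher than in CD45+EpCAM- cells and 20.7% higher than in thymocytes. Fzd1, Fzd2, Fzd6 and Fzd8 were above background on 3 arrays, 2 of them epithelial, so they entered the fit through that gate. The filter favoured this count, which describes the 8 alone. Fzd2 was at 1.39 and 2.75 in epithelial cells, -4.38 in TNF-KO thymocytes, and not above background on the other 3 arrays. It stood at least 187-fold above CD45+EpCAM- cells (fitted difference 8.34, SE 0.48, limma adjusted p = 0.00264).

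Fzd6 was at 0.34 and 0.45 in epithelial cells, at -4.35 in TNF-KO thymocytes and dim elsewhere. Its lead over CD45+EpCAM- cells was at least 58.5-fold (6.90, SE 0.14, limma adjusted p = 0.00173). The small thymocyte excess over CD45+EpCAM- cells, at least 2.15-fold from 1 measured array, passed with limma at an adjusted p of 0.0111. Fzd1, at 0.15 and -0.21 in epithelial cells, was at least 25.1-fold above thymocytes. Its fitted excess over CD45+EpCAM- cells was 32.0-fold, with 1 of the 2 arrays there above background, TNF-KO at -4.29.

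Fzd3, Fzd8 and Fzd10 were also higher in epithelial cells than in both other gates. Fzd3 was at -1.20 and -0.34 in epithelial cells against -4.99 and -5.12 in CD45+EpCAM- cells, 19.5-fold apart (SE 0.30 on the log2 scale, limma adjusted p = 0.00338). Fzd8 was at -1.07 and -0.22 in epithelial cells, at least 27.5-fold higher than in CD45+EpCAM- cells. Fzd10 was at 0.96 and 0.26 in epithelial cells and at -3.02 and -2.26 in CD45+EpCAM- cells (9.49-fold, SE 0.68, limma adjusted p = 0.0238). In thymocytes Fzd10 was above background in DKO alone, at -4.14.

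Fzd4 and Fzd7 were outside the fit because they were dim in both other gates. Fzd4 was at -1.75 and -0.72 in epithelial cells, at least 10.8-fold above thymocytes and 18.7-fold above CD45+EpCAM- cells. Fzd7 was at -0.46 and -0.10, at least 21.1-fold and 36.6-fold above them. By their brightest probe, Fzd5 and Fzd9 were the receptors above background on all 6 arrays. The second Fzd5 probe was at -2.02 and -1.67 in epithelial cells. Elsewhere it was above background in TNF-KO CD45+EpCAM- cells alone, at -5.02. The following values are those of the brightest probe. Fzd5 ranged from -4.81 to -4.34 outside the epithelial gate and was at -3.24 and -2.14 in it, a 3.97-fold excess over CD45+EpCAM- cells (limma adjusted p = 0.0148) that was lost after quantile normalization (1.13). Its call against thymocytes (3.25-fold) was lost with normexp, where thymocytes differed by -0.78, with quantile normalization, by -0.88, and without any single array of the thymocyte or CD45+EpCAM- gate. Fzd9, at -3.55 and -1.91 in epithelial cells, overlapped the thymocyte levels of -3.27 and -3.56, and its difference of 1.88 (SE 0.62) from CD45+EpCAM- cells missed the threshold with limma (adjusted p = 0.0711).

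The co-receptors Lrp5 and Lrp6, which the Wnt and Frizzled pair engages in the canonical branch, were above background everywhere. Lrp6 was at 2.88 and 3.56 in epithelial cells, against 1.85 and 2.05 in thymocytes and 1.74 and 2.03 in CD45+EpCAM- cells. The epithelial arrays did not overlap the others, and the 2.53-fold excess over CD45+EpCAM- cells passed with limma (SE 0.18, adjusted p = 0.00882). Lrp5 ranged from 0.09 to 1.24, the populations overlapped, and no contrast passed.

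Of the 8 secreted inhibitors, all but Sfrp2 were above background on the TNF-KO epithelial array and on neither array of the other gates. Sfrp1, which binds Wnt ligands, was at 0.96 and 0.94 in epithelial cells and not above background on the other 4 arrays, at least 49.6-fold higher than in thymocytes and 86.2-fold higher than in CD45+EpCAM- cells. Sfrp5 was at 0.77 in TNF-KO and -1.03 in DKO epithelial cells, at least 23.3-fold and 40.6-fold above the other gates. The remaining epithelial inhibitors, Dkk1, Dkk2, Dkk3, Dkk4 and Sfrp4, were above background on the TNF-KO epithelial array alone. Dkk1, which blocks Lrp5 and Lrp6, was at -2.09 there, and the other 4 lay between -4.36 and -2.94. Sfrp2 was above background in TNF-KO thymocytes at -4.54 and on both CD45+EpCAM- arrays at -4.90 and -4.62, and no contrast passed for it. Its direction between epithelial and CD45+EpCAM- cells depended on the processing, at -0.22 here, 1.09 with normexp and -1.86 with quantile normalization.

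Tcf7 and Lef1 were lower in the epithelial gate than in both others. Tcf7 encodes TCF-1, and both are HMG-box factors that carry beta-catenin to its target genes. Lef1 was at 3.88 and 4.01 in thymocytes, 4.18 and 4.65 in CD45+EpCAM- cells and 0.55 and 1.15 in epithelial cells. Tcf7 was at 3.09 on both thymocyte arrays, at 3.75 and 3.98 in CD45+EpCAM- cells and at 1.18 and 2.03 in epithelial cells. For both genes every epithelial value lay below all 4 others.

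Epithelial cells were 11.9-fold below CD45+EpCAM- cells for Lef1 (-3.57, SE 0.17, limma adjusted p = 0.00225) and 4.80-fold below for Tcf7 (-2.26, SE 0.26, limma adjusted p = 0.00654). Against thymocytes the gaps were 8.56-fold (SE 0.17 on the log2 scale) for Lef1 and 2.79-fold (SE 0.26) for Tcf7. The Tcf7 call against thymocytes was lost without either thymocyte array. All 8 T-lineage markers also passed as lower in epithelial than in CD45+EpCAM- cells, where 19.2% of all genes did. Against thymocytes 6 of the 8 passed as lower, where 18.3% of all genes did, and Cd8a and Thy1 did not pass. Of the 8, Cd3e was at 6.00 and 5.97 in thymocytes, 5.67 and 5.77 in CD45+EpCAM- cells and 3.89 and 4.87 in epithelial cells. The part of T-lineage RNA in the Tcf7 and Lef1 signal of the epithelial and CD45+EpCAM- gates was not tested.

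**Figure D2:**
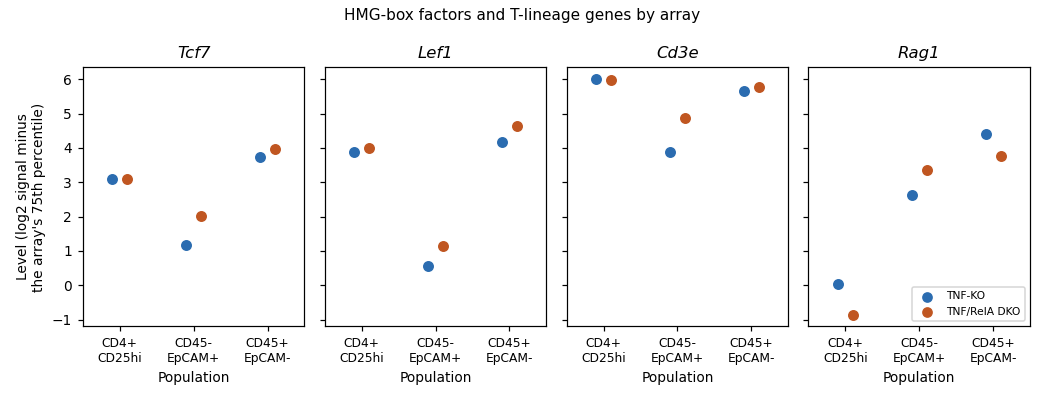
Level of Tcf7, Lef1, the T cell receptor component Cd3e and the recombinase gene Rag1 (y axis, log2 signal minus the array's 75th percentile) in the 3 populations, 1 point per array, TNF-KO in blue and DKO in orange. In CD45-EpCAM+ cells all 4 genes are higher on the DKO array, Cd3e at 4.87 against 3.89 and Tcf7 at 2.03 against 1.18.

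Axin2, a target of beta-catenin that also helps to degrade it, was weak and nearly level. It was at -4.21 and -4.15 in thymocytes, -4.15 in TNF-KO epithelial cells and -3.90 and -3.81 in CD45+EpCAM- cells, and below background on the DKO epithelial array. No contrast passed with limma. The probes disagreed: the second was above background on the CD45+EpCAM- arrays alone, at -3.56 and -3.27. With the mean over probes, CD45+EpCAM- cells passed as higher than both other gates, and with quantile normalization epithelial cells passed as lower than both.

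Beside the members, 63 other genes of the pathway were followed in 7 lists, all on the array. Their counts between epithelial and CD45+EpCAM- cells stand beside the 38.6% of all genes that passed in either direction, 19.4% higher and 19.2% lower in epithelial cells. In the list of secretion and ligand removal, 2 of 3 genes were in the fit. Wls, which carries Wnt ligands to the cell surface, was at 1.21 and 1.80 in epithelial cells against -1.44 and -1.65 in CD45+EpCAM- cells (8.29-fold, limma adjusted p = 0.00484) and -1.43 and -1.76 in thymocytes. Of 9 R-spondin and Lgr genes, 2 were in the fit. Rnf43, a ligase that removes Frizzled from the membrane, was 4.79-fold higher in epithelial than in CD45+EpCAM- cells (limma adjusted p = 0.00389), and its relative Znrf3 was 2.20-fold lower (limma adjusted p = 0.0365).

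Of 9 other secreted or membrane inhibitors, 3 were in the fit. Of these, 2 were higher in epithelial than in CD45+EpCAM- cells, beside 19.4% of all genes, and Kremen1 did not pass. All 3 were higher in epithelial cells than in thymocytes, beside 20.7% of all genes. Kremen2, a receptor for Dkk proteins, was 21.6-fold higher in epithelial than in CD45+EpCAM- cells, where 1 of 2 arrays was above background, and Apcdd1 was 5.71-fold higher (limma adjusted p = 0.00468 and 0.00311). All 14 genes of cytoplasmic signalling were in the fit, and 9 of them did not pass between epithelial and CD45+EpCAM- cells. There Dact1 was 7.49-fold higher and Nkd2 3.64-fold lower in epithelial cells. Among 10 nuclear partners, 9 were in the fit and 3 were higher in epithelial than in CD45+EpCAM- cells, beside 19.4% of all genes, with the co-repressor Tle1 9.82-fold and Tcf7l1 5.83-fold higher.

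Of 12 planar polarity genes and other Wnt receptors, 7 were in the fit, and 3 were higher and 1 lower in epithelial than in CD45+EpCAM- cells, beside 19.4% and 19.2% of all genes. The receptor Ryk was 26.7-fold higher (limma adjusted p = 0.00248) and Daam1 7.12-fold higher. Among 11 known beta-catenin targets, 9 were in the fit, with 4 higher and 1 lower in the same contrast, beside 19.4% and 19.2% of all genes. Ascl2 was 6.23 higher on the log2 scale in epithelial cells (limma adjusted p = 0.00211), with 1 of 2 CD45+EpCAM- arrays above background, and Tnfrsf19 3.58 higher (limma adjusted p = 0.00416).

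Within the epithelial gate, Fzd9, Fzd2, Fzd5 and Fzd4 were at least 2-fold higher on the DKO than on the TNF-KO array, and Sfrp5 and Wnt10b at least 2-fold lower. Each genotype had a single array here, so none of these differences could be tested or checked against a replicate. Among genes with several probes, the SD between probes of the same difference was 0.32 in this gate. Of the 20 members above background on both arrays, 4 were at least 2-fold higher in DKO and 1 at least 2-fold lower. Over all 11847 such genes the shares were 5.28% and 6.36%, or 11.6% in either direction. The members' median difference was 0.62 on the log2 scale, against 0.09 over all genes, and 0.38 against 0.0 with normexp. Of the 20, 16 were positive, where 58.7% of all genes were. The lowest signal above background was -2.82 on the DKO array and -4.78 on the TNF-KO array. A gene weaker than -2.82 in TNF-KO could therefore enter this set only as higher in DKO. This held for Fzd9 and Fzd5, at -3.55 and -3.24 in TNF-KO. The counts and medians are thus partly set by the filter and do not stand for the family.

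Of the 10 Frizzled genes, 8 had higher DKO values, 4 of them by 2-fold and 2 of them with normexp. Among these, Fzd9 and Fzd5 could be counted only as higher, because of the filter. The median difference of the 10 was 0.85, or 0.73 with normexp. Fzd9 was at -3.55 in TNF-KO and -1.91 in DKO epithelial cells, 3.10-fold higher. Fzd2 went from 1.39 to 2.75, 2.56-fold higher, and its second probe gave a difference of 1.25. Fzd5 went from -3.24 to -2.14, 2.14-fold higher, but its second probe differed by 0.36. That second probe was the brighter one in this gate, at -2.02 and -1.67.

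Fzd4 was 2.04-fold higher in DKO, at -0.72 against -1.75. Fzd3 and Fzd8 followed with differences of 0.85 and 0.86, and Fzd7 and Fzd6 with 0.36 and 0.12. Fzd1 and Fzd10 were the receptors with lower DKO values, by 0.36 and 0.70. With normexp, Fzd9 and Fzd5 stayed past 2-fold at 1.14 and 1.01, whereas Fzd2 and Fzd4 came to 0.89 and 0.85. With the mean over probes, however, Fzd5 came to 0.73 and was under 2-fold.

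Sfrp5 went the other way, from 0.77 to -1.03, 3.47-fold lower in DKO, or -1.17 on the log2 scale with normexp. Its relative Sfrp1 had nearly equal values, 0.96 and 0.94. Wnt10b was at -0.50 in TNF-KO cells and not above background in DKO cells, at least 4.98-fold lower. With normexp this bound came to -0.62 on the log2 scale. In thymocytes the same gene was at -4.13 in TNF-KO, where the lowest signal above background was -4.84. It was below background in DKO thymocytes, at least 1.30-fold lower. Wnt3a was seen on the DKO epithelial array alone, at -2.17, at least 6.08-fold above the TNF-KO side. Normexp brought the Wnt3a bound to 1.56 on the log2 scale. Its level lay near that array's lowest signal above background, -2.82, and Wnt6, at -2.32 on the same array, was not above background.

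With bounds included, 7 members were 2-fold apart in this gate, 5 higher and 2 lower. Over all 13208 genes the shares were 5.1% and 9.3%, or 14.4% in either direction. With normexp there were 4, with 3 higher and 1 lower. The smaller bounds were all lower in DKO: Dkk1 at least 1.65-fold, Wnt11 1.64-fold, Wnt5a 1.30-fold and Wnt6 1.12-fold. Another 10 members were above background in TNF-KO alone but too weak for any fold on the dim DKO array: Axin2, Dkk2, Dkk3, Dkk4, Sfrp4, Wnt3, Wnt7b, Wnt8b, Wnt9b and Wnt16.

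Wnt4, the brightest contrast between gates, differed little by genotype, with 4.66 in TNF-KO and 5.13 in DKO epithelial cells, a difference of 0.47 that was -0.01 with normexp. Wnt9a was 0.85 higher in DKO, Wnt5b 0.49 and Wnt1 0.50. Lrp6 and Lrp5 were 0.68 and 0.65 higher, with 0.27 for Lrp6 under normexp. Tcf7 and Lef1 were 0.85 and 0.60 higher, or 0.39 and 0.26 with normexp.

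**Figure D3:**
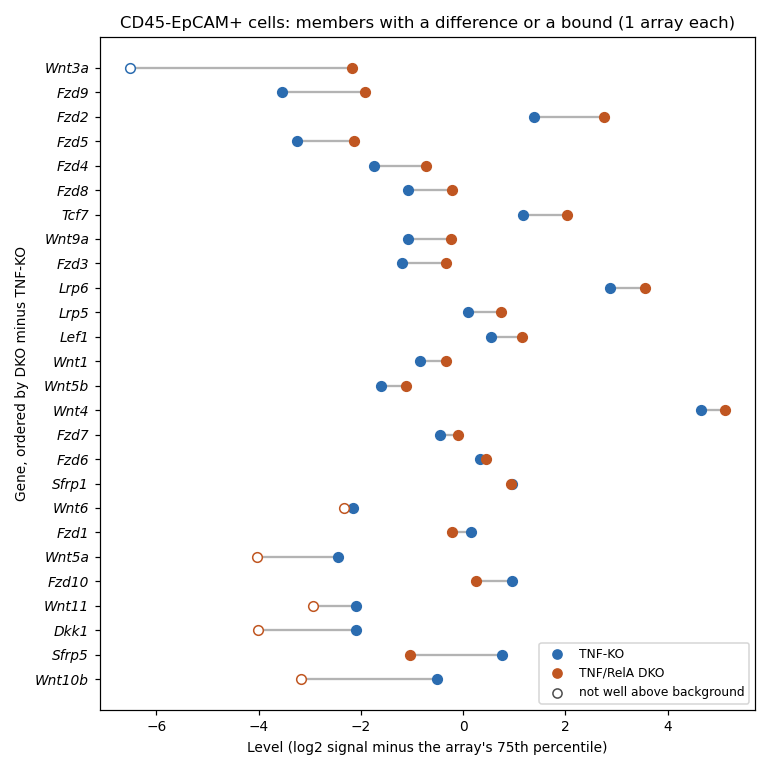
Level (x axis, log2 signal minus the array's 75th percentile) of members with a difference or a bound in CD45-EpCAM+ cells, TNF-KO in blue and DKO in orange, 1 array each, ordered by the difference; open circles were not well above background. Wnt3a, Fzd9 and Fzd2 stand at the top with DKO higher, and Wnt10b and Sfrp5 at the bottom with DKO lower.

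Signal of other cell types differed between these arrays as well. From TNF-KO to DKO, the summed T-lineage markers went from 79.3 to 150 (8 of 8 above background on both) and immature thymocyte markers from 33.6 to 66.7 (6 of 6), with median log2 differences of 0.86 and 0.79. The 6 macrophage markers went from 5.10 to 8.73 and had a median of 0.94. Of the 4 regulatory T cell markers, 3 were above background on both arrays, with a median of 1.21, and Foxp3 on neither. Of the 6 dendritic cell markers 1 was, Siglech, 0.76 higher in DKO. Flt3 was at least 2.53-fold lower and Itgax at least 1.27-fold lower. Mesenchymal markers went from 8.17 to 14.0, with 7 of 8 above background, Pdgfra on no array, Dcn from 1.85 to 3.16 and a median of 0.21. Of the 5 endothelial markers, 3 were above background on both arrays: Kdr went from 2.58 to 3.17, Pecam1 from -2.84 to -2.04 and Vwf from -0.16 to -1.78. Epithelial markers summed to 205 and 204, a sum carried by Krt5 and Krt8, with a median difference of 0.02, but the list was not uniform. Aire, which marks medullary epithelial cells, was at 1.04 in TNF-KO and -0.86 in DKO cells, 3.73-fold lower, Krt14 1.73-fold lower and Epcam 1.55-fold lower. The part of any of these cell types in the members' differences was not tested.

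In CD4+CD25hi thymocytes the share of members apart by genotype was near that of all genes. None of the 11 above background on both arrays was 2-fold apart, where 1.82% of 12170 genes were (1.03% higher and 0.797% lower). None was with bounds either, against 2.95% of all genes (1.68% higher and 1.28% lower). Their median difference was 0.07, against -0.01 over all genes, and the SD between probes of a gene was 0.22. Lrp5 went from 0.51 to 1.24, a difference of 0.73, and Wnt1 from -0.64 to -0.14. Wnt3 was lower in DKO by 0.64 and Wnt5b by 0.56, which normexp brought to -0.36 and -0.16. Tcf7 was at 3.09 on both arrays, and Lef1 at 3.88 and 4.01. Fzd10, below background in TNF-KO, was at least 1.62-fold higher in DKO.

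In CD45+EpCAM- cells the share was again near that of all genes. None of the 16 members above background on both arrays was 2-fold apart, where 2.8% of 13623 genes were (1.28% higher and 1.52% lower). Their median difference was 0.16, against -0.01 over all genes, with 13 of 16 positive, where 47.1% of all genes were. With normexp it was 0.03, against -0.03, with 10 of 16 positive, where 43.2% of all genes were. Fzd10 was 0.75 higher in DKO, Lef1 0.47, Wnt4 0.39 and Wnt5a 0.32, and Fzd9 was lower by 0.53 and Wnt5b by 0.32. With bounds, 1 member was past 2-fold, against 3.89% of all genes (1.82% higher and 2.08% lower). This was Fzd1, at -4.29 in TNF-KO and below background in DKO, at least 2.38-fold lower, or -0.39 on the log2 scale with normexp. Marker signal differed between these arrays too. Of the 6 dendritic cell markers, 5 were above background on both, with a median difference of -1.46. The 6 macrophage markers had a median of 0.79, the 6 immature thymocyte markers -0.59 and the 4 B cell markers -0.70. Their part in the members' differences was not tested.

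**Figure D4:**
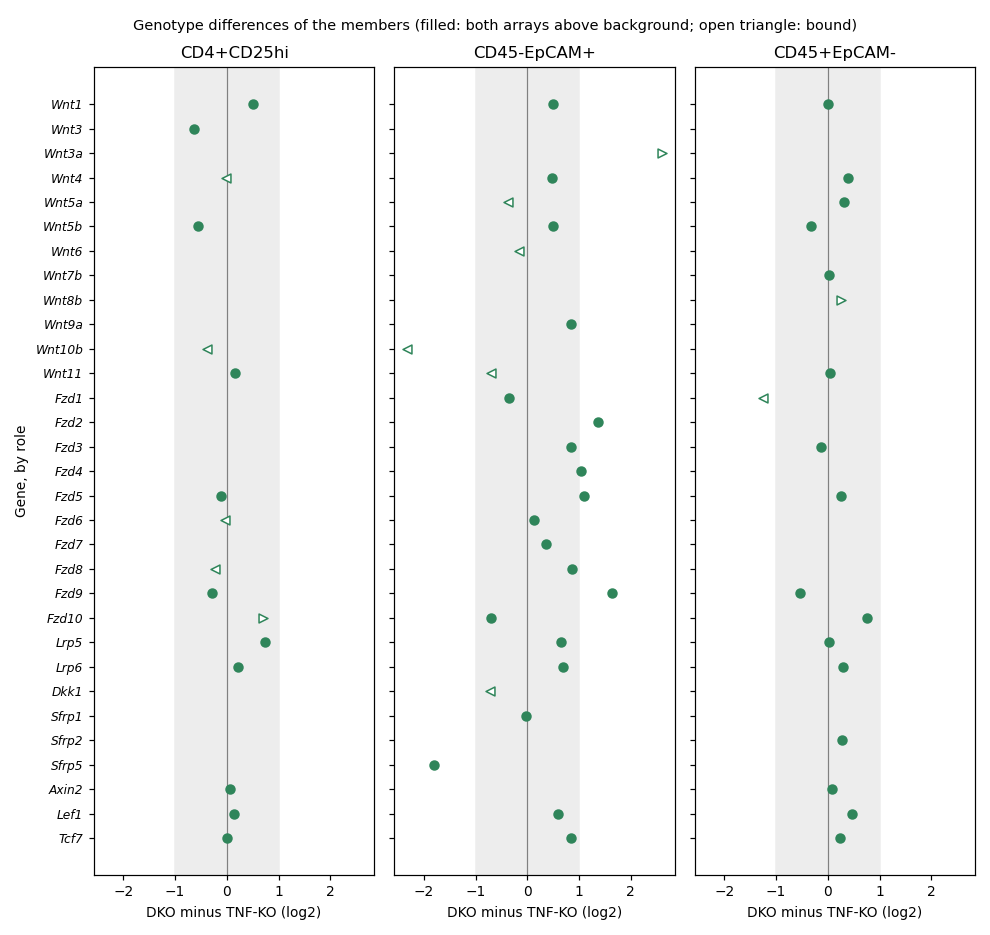
DKO minus TNF-KO (x axis, log2) for each member in the 3 populations, 1 array per genotype; filled circles are differences with both arrays above background, open triangles bounds, and the grey band spans 2-fold either way. Points leave the band in CD45-EpCAM+ cells, and in the other gates the bound for Fzd1 alone does.

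Some other pathway genes were 2-fold apart by genotype. Above background on both epithelial arrays, these were 1 higher and 1 lower of 13 cytoplasmic signalling genes and 1 lower of 8 beta-catenin targets. The other lists had none there, beside 11.6% of all genes. In CD45+EpCAM- cells it was 1 lower of 8 beta-catenin targets, beside 2.8%, and in thymocytes none, beside 1.82%. With bounds the shares of all genes were 14.4%, 3.89% and 2.95%, in the same order. Ccnd1, a cell cycle gene and beta-catenin target, was at 1.51 in TNF-KO and -0.50 in DKO epithelial cells, 4.03-fold lower, and at 1.14 and -1.30 in CD45+EpCAM- cells, 5.44-fold lower. In thymocytes it was not above background. In epithelial cells Dact1 was lower by 1.04 on the log2 scale, Sostdc1 at least 2.63-fold lower and Apc 1.14 higher. Porcn, which adds the lipid to Wnt ligands, was at least 2.71-fold lower in DKO CD45+EpCAM- cells, and Daam1 at least 2.66-fold lower in DKO thymocytes.

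The genotype difference shared by the 3 populations was estimated in limma, with population as a block. None of the 21 members passed, and none of the 13743 genes did (0.0%), against 873 (6.35%) at an unadjusted p under 0.05. Wnt3 was the member with such a p. Its average difference was -0.77 (SE 0.11, limma adjusted p = 0.679), with DKO lower in each population, though the DKO epithelial array and both CD45+EpCAM- arrays were not above background for it. Lrp5, Lrp6, Lef1, Tcf7 and Wnt1 were higher or equal in DKO throughout, with average differences of 0.34 to 0.46 and limma adjusted p-values of 0.679 to 0.682.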

How the data were processed

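RNA of 6 sorted pools, 1 per genotype and population, was amplified with a low-input kit, labelled with Cy3 and hybridised to mouse array design 026655, per the labels' protocols and the file headers. The authors' scanner files give the intensity of each spot, extracted with Feature Extraction 10.5.1.1, per the file headers, whereas the submitters' processing notes name version 9.5. Per the file headers, that program had subtracted background from the processed signal and detrended it. The authors' value table is in log2, which no label states. After offsets per array of -0.0054 to -0.0004 it matched log2 processed signal scaled to the 75th percentile within 0.05 for 100.0% of probes, with column medians of -3.72, -3.61, -2.84, -2.72, -3.63 and -3.58, in the order of populations below, TNF-KO first.

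Control spots and outlier spots were left out. Of 39419 probes used, 27472 (69.7%) had 1 symbol through their transcript accession in RefSeq's GRCm38.p6 gene table, 35 several and 11912 none; the array design names build mm9, so coordinates are given for RefSeq promoters only. Spots of a probe were averaged on the log2 scale. Where a gene was not well above background on a side, that side took the lowest signal above background on its array, or its own value if that was higher, and the fold is then "at least". Members and lists were chosen with earlier results of these data known. Named with values are members above background on both arrays of a population, other members with their arrays, and, of the other lists, genes 2-fold apart by genotype or among the 2 per list with the widest called contrasts; some further genes of those lists are named as examples.

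Comparisons between CD4+CD25hi, CD45-EpCAM+ and CD45+EpCAM- cells and the common genotype effect were fitted with limma 3.58.1 in R 4.3.3 over all 13743 genes above background on at least 3 arrays, with 2 residual and 1.74 prior degrees of freedom, adjusted by Benjamini-Hochberg and tested on simulated data. Alternatives were normexp background correction with an offset of 50, run on spot medians because no spot mean was used here, median centring, quantile normalization, the deposited table, the mean over probes, other filters, no population block, and each array left out in turn. Precision is limited by the number of arrays.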

Additional observations from a re-analysis of the deposited data

How the results depend on the processing

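Filters on dim probes change how many members are tested. With genes above background on all 6 arrays, 5 members passed between CD4+CD25hi and CD45-EpCAM+ cells, 1 between CD4+CD25hi and CD45+EpCAM- cells and 5 between the stromal gates. With no filter the first and last counts were 26 and 31. With 1 array left out, these counts ranged from 9 to 16, from 0 to 6 and from 8 to 15; the remaining array of that group's population is then assumed to vary like the others. The common genotype effect passed for 0 members under every alternative fitted, including no population block. For genotype differences in CD45-EpCAM+ cells, the 7 members 2-fold apart became 4 with normexp, 6 with median centring, 9 with quantile normalization and 5 without bounds. In CD45+EpCAM- cells the 1 member became 0 with normexp and 0 without bounds, and in CD4+CD25hi thymocytes it was 0 throughout. Of the values of single members between populations, 711 kept their direction and their side of the threshold, 50 lost a call, 18 gained one and 1 reversed: Sfrp2, whose CD45-EpCAM+ level exceeded that of CD45+EpCAM- cells by 1.09 with normexp. The cause was not tested. Of the genotype differences of single members, 307 moved by less than the spread between probes and 28 by more. The median of all genes between the stromal gates was -0.14, and 0.09 with normexp. The labels give no replicate numbers; the genotypes were paired by population alone, in the fit of the common effect.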
